A study of Mus musculus with 6 samples.

Results

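The aldehyde, alcohol and carbonyl metabolizing enzymes examined here are the genes whose symbols begin with Aldh, Akr, Cbr or Adh followed by a digit. Aldh18a1, which serves proline synthesis, and Aldh1l2, which serves mitochondrial folate metabolism, were left out by name. The rule found 46 genes among the 24956 listed for the series, 1 of them the pseudogene Adh6-ps1. Expression was measured by RNA sequencing in intestinal organoids, which are epithelial cultures grown in organoid medium, from mice with the Apc Min genotype. The Min allele is a nonsense mutation of Apc, a brake on Wnt signalling, and all 6 libraries carry it. 3 cultures were treated with DM-aKG, an ester form of α-ketoglutarate (dimethyl α-ketoglutarate) that enters cells, and 3 were controls. What the controls received, and the dose, time, age of the mice and source of each replicate, were not given in the sources used here, so the p-values measure the spread between these cultures only. Per its title, the study asked how α-ketoglutarate bears on Wnt signalling and on cell differentiation.

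Levels are RPKM, that is reads scaled to the length of the gene and to the reads of the library. They can be compared between genes, but less strictly between libraries. Summed over all genes they came to 358600 to 363500 RPKM in DM-aKG and 369600 to 375000 RPKM in control. Results under other scalings are given below. Libraries held an estimated 32680000 to 34210000 reads in DM-aKG and 32740000 to 33700000 in control. A gene entered the test if its mean over the 6 libraries was at least 1 RPKM, which held for 30 of the 46 enzyme genes and for 10852 genes in all. Log2 fold changes are of RPKM + 0.5, which understates the change of low genes, and a gene is called changed at a Benjamini-Hochberg adjusted p under 0.05 over all tested genes (limma). Libraries correlated at r = 0.990 to 0.997 within the DM-aKG group, at 0.995 to 0.997 within the controls and at 0.957 to 0.971 between groups, across genes, which are not independent replicates. Markers of other tissues were low. The 7 stomach genes summed to 3.39 to 3.71 RPKM in DM-aKG and 3.46 to 5.16 RPKM in control, with Pgc the highest of them. The 9 fibroblast and muscle genes summed to 0.07 to 0.12 RPKM in the DM-aKG libraries and 0.04 to 0.07 RPKM in the controls, with Col3a1, Dcn and Lum listed at 0 in every library. The 5 endothelial markers summed to 0.40 to 0.52 RPKM in DM-aKG and 0.20 to 0.29 RPKM in control, with Cdh5 and Kdr at 0 throughout. The 8 immune markers summed to 2.22 to 3.46 RPKM in DM-aKG and 1.84 to 1.99 RPKM in control, most of it Cd68 and Itgam, while Ptprc was at most 0.01 RPKM in any library. The 8 epithelial markers summed to 3667 to 4575 RPKM in DM-aKG and 2849 to 2896 RPKM in control, with the keratin genes Krt8, Krt18 and Krt19 higher in DM-aKG by 0.85 to 0.91 (log2) and Epcam (-0.33) and Cdx2 (-0.81) lower. Stem cell markers moved between the groups: all 9 listed were lower in DM-aKG, with sums of 314 to 401 RPKM in DM-aKG and 675 to 751 RPKM in control. In bulk samples, fewer cells of a type and less RNA per cell cannot be told apart. In the DM-aKG group replicate 1 stood apart, with the highest stem cell sum (401 RPKM, against 314 in each of the other two) and 8 Paneth cell genes summing to 1696 RPKM, against 749 and 722 RPKM in replicates 2 and 3. The Paneth sums were 2234 to 2919 RPKM in the controls. Of the Paneth genes 6 were called lower, 1 was not called and 1, Pla2g2a, was called higher. The 8 goblet cell genes summed to 678 to 945 RPKM in DM-aKG and 1974 to 2122 RPKM in control. The 8 enteroendocrine genes summed to 530 to 550 RPKM in DM-aKG and 363 to 384 RPKM in control. For the 10 enterocyte genes the sums were 2130 to 2252 RPKM in DM-aKG and 1942 to 2207 RPKM in control. Their members were split, with 2 called higher (Fabp1 and Anpep), 2 lower (Alpi and Apoa4) and 6 not called. The part of these cell types in the changes of the enzyme genes was not tested.

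Aldehydes and ketones arise from lipid peroxidation, alcohols, vitamin A and amino acids, and many react with proteins and DNA. Aldehyde dehydrogenases (ALDH) oxidize aldehydes to acids with NAD or NADP, whereas aldo-keto reductases (AKR) and carbonyl reductases (CBR) reduce aldehydes, ketones and quinones to alcohols with NADPH. Alcohol dehydrogenases (ADH) interconvert alcohols and aldehydes, ethanol and retinol among them. In the gut epithelium these enzymes handle dietary and microbial carbonyls and supply retinoic acid, and several AKR, CBR and ALDH genes are known targets of the antioxidant transcription factor NRF2.

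In the DM-aKG cultures the carbonyl reductases Cbr1 and Cbr3, the aldose reductase relatives Akr1b8 and Akr1b7 and the ALDH1A genes Aldh1a1 and Aldh1a7 were higher. The tested alcohol dehydrogenases were lower. The other aldehyde dehydrogenases were split, with Aldh2, Aldh3a2, Aldh3b1 and Aldh4a1 higher. Lower were Aldh1b1, Aldh1l1, Aldh9a1, Aldh6a1 and Aldh16a1, and Aldh5a1 and Aldh7a1 were not called. Of the 30 tested enzyme genes, 13 were higher in DM-aKG, 9 were lower and 8 were not called (limma), so 73.3% changed, where the share over all tested genes was 55.6%. The higher ones made 43.3%, against 30.9% over all genes, and 9 of 30 were lower, where 24.7% of all genes were. Among the enzyme genes, 8 rose by at least 0.5 on the log2 scale, which is 26.7%, where 8.97% of all tested genes did. A fall of that size was seen in 3 of 30, where 6.68% of all genes fell as far. Rises of at least 1 were found in 5 of 30 (16.7%), where the share over all genes was 2.68%. The median log2 fold change was 0.05 over the enzyme genes and 0.02 over all tested genes, so the group as a whole had no common direction. Over all genes, 3354 were higher and 2679 lower, and centring each library on its median turned these counts to 2790 higher and 3340 lower. The 11 enzyme genes that changed by at least 0.5 were called under each of 17 alternative settings that tested them. The groups did not overlap for 23 of the 30 genes (76.7%), where this held for 64.2% of all tested genes.

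**Figure D1:**
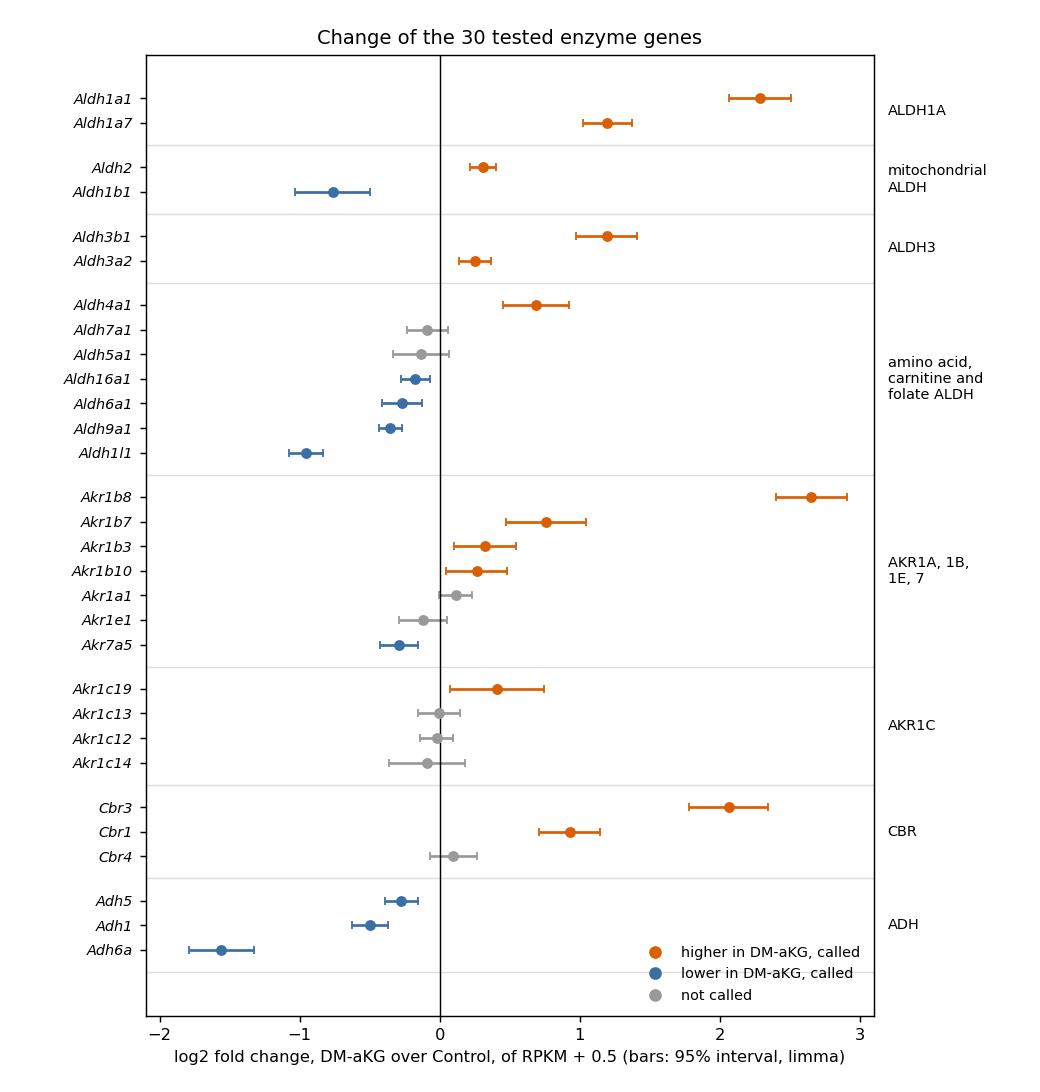
Log2 fold change (horizontal axis, RPKM + 0.5, DM-aKG over Control) of each of the 30 tested enzyme genes, grouped by role (right), with 95% intervals from limma; orange, called higher; blue, called lower; grey, not called. Akr1b8 (2.65), Aldh1a1 (2.29) and Cbr3 (2.06) lie farthest to the right and Adh6a (-1.56) farthest to the left, and all 3 ADH genes lie left of 0.

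The ALDH1A enzymes had a common rise. Aldh1a1, a cytosolic enzyme that makes retinoic acid from retinaldehyde, had 36.5, 38.9 and 37.2 RPKM in the DM-aKG libraries and 8.54, 6.31 and 7.12 RPKM in the controls. Every treated culture was far above every control, and the treated values lay close together. The means were 37.5 ± 1.23 RPKM in DM-aKG and 7.32 ± 1.13 RPKM in control (SD, n = 3 each), and the log2 fold change was 2.29 with an SE of 0.10 (limma, adjusted p = 3.47e-06), the 35th largest rise of the 10852 tested genes. Aldh1a7, a rodent duplicate of Aldh1a1, had 27.9, 32.6 and 33.3 RPKM in DM-aKG and 14.2, 12.8 and 12.95 RPKM in control. It rose by 1.20 ± 0.07 in log2 units (SE; limma, adjusted p = 2.14e-05), again without overlap. Aldh1a1 was the more abundant of the pair in DM-aKG, at 1.12 to 1.31 times the RPKM of Aldh1a7, and the less abundant in control, at 0.492 to 0.603 times. Aldh1a2 and Aldh1a3, which like Aldh1a1 make retinoic acid, were almost silent. Aldh1a2 was at most 0.01 RPKM in any library, and Aldh1a3 had 0.08, 0.13 and 0.13 RPKM in DM-aKG and 0.01, 0.05 and 0.03 RPKM in control. Both were under the filter.

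Aldh1a1 lies on chromosome 19, 20492715 to 20643465 (plus strand), and Aldh1a7 downstream of it at 20692953 to 20727562 (minus strand), both annotated as protein-coding in the GENCODE annotation of GRCm38. Their coding sequences are identical at 91.9% of 1501 aligned bases. Of all 50-base windows of their transcripts, 6.54% of those of Aldh1a1 and 7.49% of those of Aldh1a7 occur in the other gene, so a small part of the reads could have been assigned to either. The 250 bases before their starts are shown because the genes rose together and their promoters are alike in part. In an alignment that allowed gaps, 175 of the 250 bases were set against a base of the other promoter. Of these 175, 91.4% were identical, and bases set against a gap were left out of this share. Capitals mark the longest run that both share, 65 bases from 94 to 30 bases before each start (RefSeq, GRCm38.p6). The first is chr19:20601718-20601967, plus strand, the downstream of 2 starts that RefSeq gives for Aldh1a1, and the second is chr19:20727557-20727806, minus strand.
Aldh1a1: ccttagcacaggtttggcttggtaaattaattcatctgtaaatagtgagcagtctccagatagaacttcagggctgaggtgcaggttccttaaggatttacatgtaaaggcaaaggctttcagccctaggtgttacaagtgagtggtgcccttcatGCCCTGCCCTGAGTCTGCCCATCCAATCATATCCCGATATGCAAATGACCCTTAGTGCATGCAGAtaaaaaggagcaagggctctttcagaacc
Aldh1a7: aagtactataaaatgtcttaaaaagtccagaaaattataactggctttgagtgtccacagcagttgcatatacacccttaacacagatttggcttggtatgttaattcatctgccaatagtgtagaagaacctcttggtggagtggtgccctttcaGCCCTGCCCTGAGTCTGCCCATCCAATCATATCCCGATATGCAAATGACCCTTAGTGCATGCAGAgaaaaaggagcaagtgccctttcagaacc
Within the shared run lie a CCAAT box (letters CCAAT) and an octamer (letters ATGCAAAT). Searched on both strands, the octamer was found before 1.60% of 32851 RefSeq starts and, among the 27 tested enzyme genes with a promoter in the table, before these 2 genes only. CCAAT was found before 33.9% of all starts and before 13 of the 27 genes. The motifs were chosen after the sequences had been read, and a match is a description of letters, not of binding.

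The mitochondrial acetaldehyde dehydrogenases moved in opposite directions. Aldh1b1, which also marks progenitor cells of the intestinal crypt, had 139, 101 and 101 RPKM in DM-aKG and 187, 196 and 191 RPKM in control. All treated values were below all controls, with replicate 1 nearest to them. The log2 fold change was -0.76 ± 0.11 (limma, adjusted p = 0.00106), and -0.91 without DM-aKG replicate 1. Stem cell markers moved with it, including the higher sum in DM-aKG replicate 1; their part in the fall was not tested. Aldh2, the main acetaldehyde dehydrogenase of most tissues, rose to 63.3, 59.4 and 59.9 RPKM in DM-aKG, against 48.4, 49.2 and 49.3 RPKM in control (log2 fold change 0.31 ± 0.04; limma, adjusted p = 5.45e-04). Aldh1b1 remained the more abundant: its RPKM was 1.69 to 2.19 times that of Aldh2 in DM-aKG and 3.86 to 3.99 times in control.

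Both tested enzymes of the ALDH3 class, which act on fatty and other lipid aldehydes, were higher in DM-aKG. Aldh3b1 was low but clearly separated, at 2.90, 3.30 and 3.59 RPKM in DM-aKG and 1.08, 1.09 and 1.26 RPKM in control (log2 fold change 1.19 ± 0.09; limma, adjusted p = 6.05e-05). Its transcript shares 9.55% of its 50-base windows with Aldh3b3 and Aldh3b2, which were at 0 and at 0.11 to 0.16 RPKM. Aldh3a2, the fatty aldehyde dehydrogenase of the endoplasmic reticulum, had 30.1, 28.7 and 28.8 RPKM in DM-aKG and 25.1, 23.0 and 25.2 RPKM in control, a log2 fold change of 0.25 ± 0.05 (limma, adjusted p = 0.00343). Aldh3a1, an abundant protein of the cornea and known in cell lines as a target of the aryl hydrocarbon receptor (AHR), was at 0.03, 0.05 and 0.09 RPKM in DM-aKG and listed at 0 in each control. With no filter on low values it passed the test (limma, adjusted p = 0.0278), as did Aldh1a3 (limma, adjusted p = 0.0138), both at levels near the smallest that the table records.

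Among 7 tested dehydrogenases of amino acid, GABA, carnitine and folate metabolism, 1 was higher, 4 were lower and 2 were not called, where 30.9% of all tested genes were higher and 24.7% lower. Aldh1l1, which oxidizes formyltetrahydrofolate and so removes folate-bound formyl groups, had 7.57, 6.80 and 7.37 RPKM in DM-aKG and 14.7, 14.7 and 14.2 RPKM in control. The 3 treated cultures were near 0.50 times the control level, and the log2 fold change was -0.96 ± 0.05 (limma, adjusted p = 1.16e-05). Exons of Aldh1l1 overlap those of an antisense and a long non-coding gene over 13.4% of their bases, and whether reads were counted by strand is not given in the sources used here. Aldh9a1, an enzyme of carnitine synthesis and the most abundant of this class, was at 71.5, 73.1 and 71.0 RPKM in DM-aKG and 90.6, 92.2 and 92.7 RPKM in control (log2 fold change -0.35 ± 0.04; limma, adjusted p = 1.88e-04). The valine and thymine catabolic gene Aldh6a1 fell by 0.27 ± 0.06 on the log2 scale and Aldh16a1, a member thought to lack catalytic activity in mammals, by 0.17 ± 0.04. Exons of Bbof1 overlap 18.6% of the exonic bases of Aldh6a1 on the opposite strand. Aldh16a1 lost its call without control replicate 3 (limma, adjusted p = 0.0505).

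Aldh4a1 was the gene of this class called higher. It converts pyrroline carboxylate, the breakdown product of proline, to glutamate, and it had 4.14, 4.38 and 4.08 RPKM in DM-aKG and 2.03, 2.82 and 2.45 RPKM in control (log2 fold change 0.69 ± 0.10; limma, adjusted p = 9.61e-04). The annotation holds a second protein-coding gene, Gm21969, on the same strand, and 45.0% of the 50-base windows of the Aldh4a1 transcript occur in it, so the level of Aldh4a1 is uncertain. Aldh5a1, which turns succinic semialdehyde from GABA into succinate, averaged 8.11 ± 0.99 RPKM in DM-aKG and 8.90 ± 0.52 RPKM in control and was not called (limma, adjusted p = 0.224; adjusted p = 0.0144 without DM-aKG replicate 1, where the log2 fold change was -0.22). Non-coding genes overlap 17.7% of its exonic bases on the opposite strand. The lysine catabolic gene Aldh7a1 averaged 3.63 ± 0.16 RPKM in DM-aKG and 3.89 ± 0.21 RPKM in control, a difference whose 95% interval ran from -0.24 to 0.06 on the log2 scale.

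**Figure D2:**
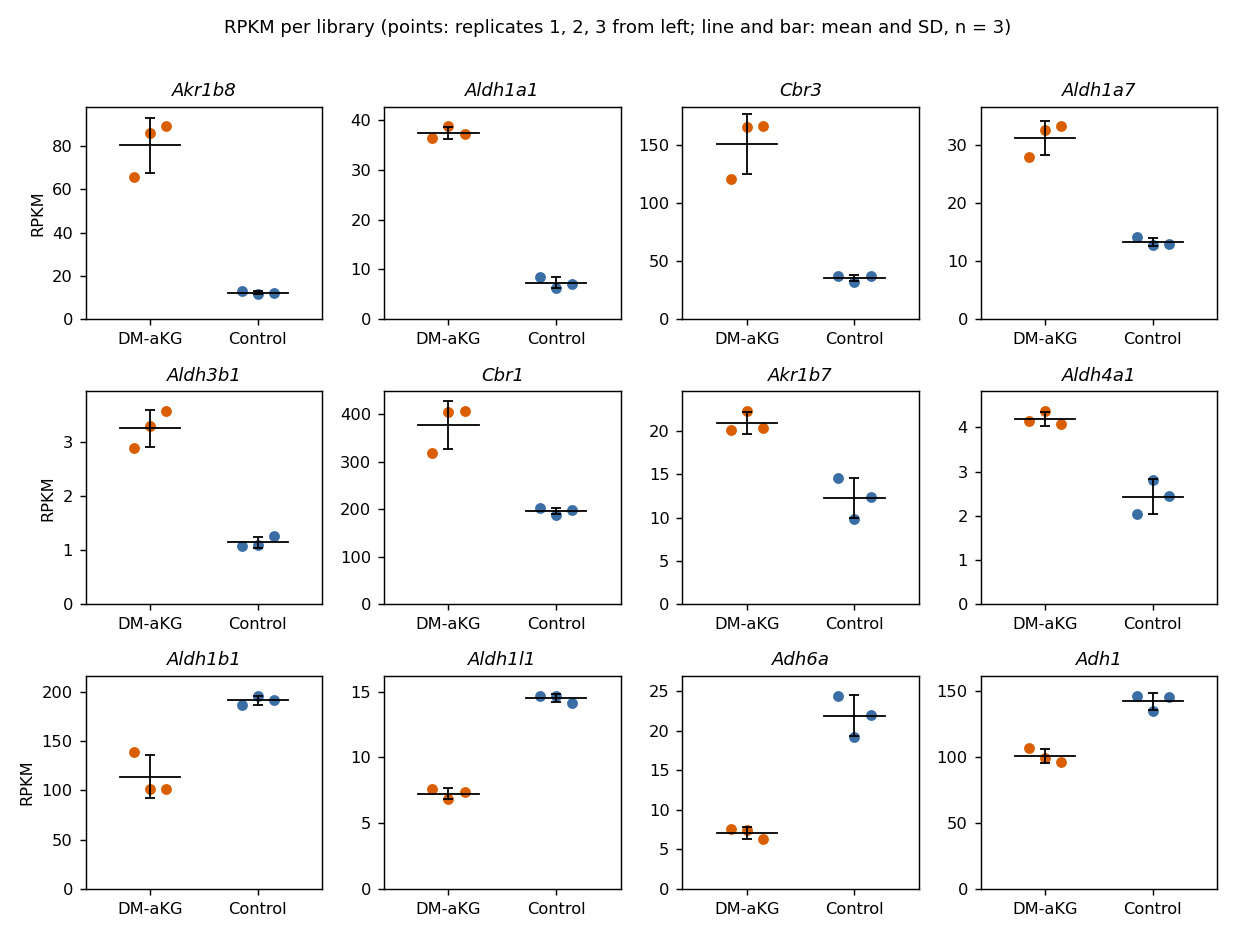
RPKM in each library (vertical axes, each starting at 0) of 12 enzyme genes, DM-aKG left in orange and Control right in blue; the line and bar give the mean and SD of 3 libraries. The first 8 genes are higher in every DM-aKG library than in any control and the last 4 are lower; DM-aKG replicate 1 (left point) lies nearest to the controls for Cbr3, Cbr1 and Aldh1b1, at 121, 318 and 139 RPKM.

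Among the aldehyde and aldose reductases, the largest change fell on Akr1b8. It encodes a relative of aldose reductase expressed in the colon epithelium of mice, which reduces aliphatic aldehydes and retinaldehyde. Its level was 65.7, 85.9 and 89.4 RPKM in DM-aKG and 12.95, 11.8 and 11.9 RPKM in control. Treated cultures thus stood several-fold above the tightly grouped controls, with means of 80.3 ± 12.8 RPKM in DM-aKG and 12.2 ± 0.62 RPKM in control. The log2 fold change of 2.65 ± 0.11 (limma, adjusted p = 3.38e-06) was the 15th largest rise of all tested genes. Akr1b8 lies in a cluster on chromosome 6, at 34354119 to 34368463 (plus strand), with Akr1b10 (34384218 to 34396950) and Akr1b7 (34412334 to 34423142) after it and Akr1b3 (34302434 to 34317478, minus strand) before it. The 250 bases before its start are shown because no other enzyme gene rose as much (chr6:34353896-34354145, plus strand, RefSeq, GRCm38.p6). Capitals mark the motif matches, which are a TATA box (letters TATAAA, here on the opposite strand) and the core of the AHR response element (letters GCGTG). The RefSeq start used here lies downstream of the GENCODE start at 34354119. By GENCODE the last bases of the window, GCGTG among them, therefore lie within the gene and not before it.
Akr1b8: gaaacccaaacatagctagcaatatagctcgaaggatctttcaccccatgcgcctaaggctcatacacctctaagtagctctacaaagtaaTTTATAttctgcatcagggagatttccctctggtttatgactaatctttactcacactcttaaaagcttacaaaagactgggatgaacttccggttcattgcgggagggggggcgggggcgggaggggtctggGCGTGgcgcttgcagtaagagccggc
On either strand GCGTG was found before 28.2% of all RefSeq starts and before 5 of the 27 enzyme genes (Akr1b8, Aldh3a2, Aldh4a1 and Cbr1, which were higher, and Aldh9a1, which was lower). TATAAA was found before 12.4% of all starts and before 4 of the 27 genes. The core of the antioxidant response element, through which NRF2 acts (letters TGACNNNGC), was found before 10.2% of all starts and before 2 of the 27 enzyme genes, Adh6a and Aldh9a1, both lower in DM-aKG. It was not in these windows of Akr1b8, Aldh1a1, Aldh1a7 or Cbr1, which says nothing of more distant sequence.

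Akr1b7, an aldose reductase relative also known from the adrenal gland, where it reduces an aldehyde by-product of steroid synthesis, had 20.1, 22.4 and 20.4 RPKM in DM-aKG and 14.6, 9.88 and 12.4 RPKM in control (log2 fold change 0.76 ± 0.12; limma, adjusted p = 0.00151). Its groups did not overlap, but the rise was smaller than that of Akr1b8. Within a library the ratio of Akr1b8 to Akr1b7 was 3.27, 3.84 and 4.38 in DM-aKG and 0.888, 1.20 and 0.961 in control, a difference of 1.92 in log2 ratio. Akr1b10 averaged 5.18 ± 0.12 RPKM in DM-aKG and 4.25 ± 0.61 RPKM in control (limma, adjusted p = 0.0429). Akr1b3, the mouse aldose reductase that turns glucose into sorbitol, averaged 3.22 ± 0.10 RPKM in DM-aKG and 2.48 ± 0.38 RPKM in control (limma, adjusted p = 0.0214). Neither call was firm: Akr1b10 was lost without any of DM-aKG replicates 1 to 3 (limma, adjusted p = 0.0695, 0.0837 and 0.0992) or control replicate 1 or 3 (0.0678 and 0.10), and Akr1b3 without DM-aKG replicate 2 or 3 (0.0585 and 0.0671) or control replicate 1 or 3 (0.0723 and 0.0805). Of the 50-base windows of Akr1b3, 59.9% occur in other genes, mainly processed copies such as Gm6644, so its low level is uncertain; for Akr1b7, Akr1b8 and Akr1b10 the share was 2.52% to 3.21%. The pseudogene Gm13857 overlaps 27.2% of the exonic bases of Akr1b7 on the opposite strand, so without strand its reads could not be told apart from those of Akr1b7.

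Akr1a1, the general aldehyde reductase that in mice also serves ascorbate synthesis, was the most abundant enzyme gene in control and the second in DM-aKG. It had 259, 281 and 281 RPKM in DM-aKG and 243, 258 and 257 RPKM in control, with groups set apart by less than 1 RPKM. It was not called (log2 fold change 0.11, 95% interval -0.003 to 0.23; limma, adjusted p = 0.0885), but it was without DM-aKG replicate 1 (limma, adjusted p = 0.0104) and with equal RPKM sums per library (limma, adjusted p = 0.0303). Akr7a5, an aflatoxin aldehyde reductase that also reduces succinic semialdehyde, fell to 60.6, 62.5 and 66.5 RPKM in DM-aKG, against 72.0, 81.3 and 79.5 RPKM in control (log2 fold change -0.29 ± 0.06; limma, adjusted p = 0.00390). Akr1e1 averaged 13.2 ± 1.39 RPKM in DM-aKG and 14.3 ± 0.62 RPKM in control and was not called (limma, adjusted p = 0.211; adjusted p = 0.00790 without DM-aKG replicate 1, where the log2 fold change was -0.20).

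The AKR1C enzymes, hydroxysteroid dehydrogenases that form a cluster on chromosome 13, had 1 of 4 tested genes called, where 55.6% of all tested genes were. Akr1c13, the most abundant, had 109, 105 and 101 RPKM in DM-aKG and 114, 96.1 and 107 RPKM in control, so the groups overlapped. The log2 difference was -0.005, with a 95% interval from -0.16 to 0.15. For Akr1c12 the values were 71.6, 72.1 and 66.3 RPKM in DM-aKG and 71.6, 67.6 and 73.6 RPKM in control (95% interval -0.14 to 0.10). These 2 genes are near copies, with 96.2% of 969 coding bases identical and 28.6% of the 50-base windows of each found in the other, so the division of reads between them is uncertain. Akr1c14, which reduces dihydrotestosterone and related steroids, averaged 25.8 ± 2.53 RPKM in DM-aKG and 27.6 ± 4.38 RPKM in control (limma, adjusted p = 0.530; adjusted p = 0.00253 and a log2 fold change of -0.29 with DM-aKG replicate 1 and control replicate 2 both left out). Akr1c19 was the member called higher, with 54.7, 58.5 and 57.6 RPKM in DM-aKG and 51.2, 32.7 and 46.4 RPKM in control (limma, adjusted p = 0.0421). Its controls were spread widely, and the call was lost without DM-aKG replicate 2 or 3 (limma, adjusted p = 0.109 and 0.0971), without control replicate 3 (0.0602) and after median centring (0.0640). The other 6 genes listed with them were Akr1c6, Akr1c18, Akr1c20 and Akr1c21, and, outside the cluster, Akr1cl (chromosome 1) and Akr1d1 (chromosome 6). These 6 were at most 0.08 RPKM in any library, Akr1c20 and Akr1cl at 0 in all.

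Carbonyl reductases showed the largest rise in RPKM. Cbr1, which reduces quinones, prostaglandins and anthracyclines, had 318, 404 and 407 RPKM in DM-aKG and 202, 188 and 199 RPKM in control, which made it the most abundant enzyme gene of the treated cultures. It rose by 0.93 ± 0.09 in log2 units (limma, adjusted p = 1.80e-04). Cbr3, a close relative with a narrower substrate range, had 121, 166 and 167 RPKM in DM-aKG and 37.0, 32.4 and 37.1 RPKM in control, and ranked 3 among the enzyme genes in DM-aKG and 12 in control. Its log2 fold change was 2.06 ± 0.12 (limma, adjusted p = 1.69e-05), the 50th largest rise of all tested genes. For both genes DM-aKG replicate 1 was the lowest of the treated cultures, yet well above the controls. The genes lie close together on chromosome 16, Cbr1 at 93605853 to 93610505 and Cbr3 at 93683215 to 93690990 (both plus strand). Their coding bases are identical at 77.8% of 829 positions and they share 1 window of 50 bases. The ratio of Cbr3 to Cbr1 within a library was 0.381 to 0.410 in DM-aKG and 0.172 to 0.187 in control. Cbr4, a subunit of the mitochondrial ketoacyl reductase of fatty acid synthesis, averaged 12.1 ± 0.87 RPKM in DM-aKG and 11.3 ± 0.90 RPKM in control and was not called (95% interval of the log2 fold change -0.07 to 0.27; limma, adjusted p = 0.283). Cbr2, a reductase of mouse lung, stayed under the filter at 0.14, 0.42 and 0.33 RPKM in DM-aKG and 0.18, 0.12 and 0.12 RPKM in control.

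All 3 tested alcohol dehydrogenases fell. Adh6a had 7.61, 7.38 and 6.26 RPKM in DM-aKG and 24.4, 19.2 and 22.0 RPKM in control, the largest fall among the enzyme genes (log2 fold change -1.56 ± 0.10; limma, adjusted p = 2.38e-05) and the 53rd largest of all tested genes. Adh1, which oxidizes ethanol and retinol, was the most abundant of the family, with 107, 98.8 and 96.0 RPKM in DM-aKG and 146, 135 and 145 RPKM in control (log2 fold change -0.50 ± 0.05, in size just short of 0.5; limma, adjusted p = 2.57e-04). Adh5, the glutathione-dependent formaldehyde dehydrogenase that every tissue uses, had 62.5, 64.5 and 62.8 RPKM in DM-aKG and 73.9, 82.0 and 74.1 RPKM in control (log2 fold change -0.27 ± 0.05; limma, adjusted p = 0.00264). In each case every treated culture was below every control. The 3 genes lie in a single cluster on the plus strand of chromosome 3, with Adh1 at 138260991 to 138290698, Adh6a at 138313286 to 138331134 and Adh5 at 138443093 to 138455499. Their neighbours Adh7 and Adh4, a stomach and a liver form, were at 0.22 to 0.28 and 0.42 to 0.56 RPKM in DM-aKG and at 0.09 to 0.24 and 0.30 to 0.42 RPKM in control, under the filter, and the pseudogene Adh6-ps1 was at most 0.01 RPKM. The fall was thus uneven: Adh6a stood at 0.0652 to 0.0747 times the RPKM of Adh1 in DM-aKG and at 0.143 to 0.167 times in control.

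**Figure D3:**
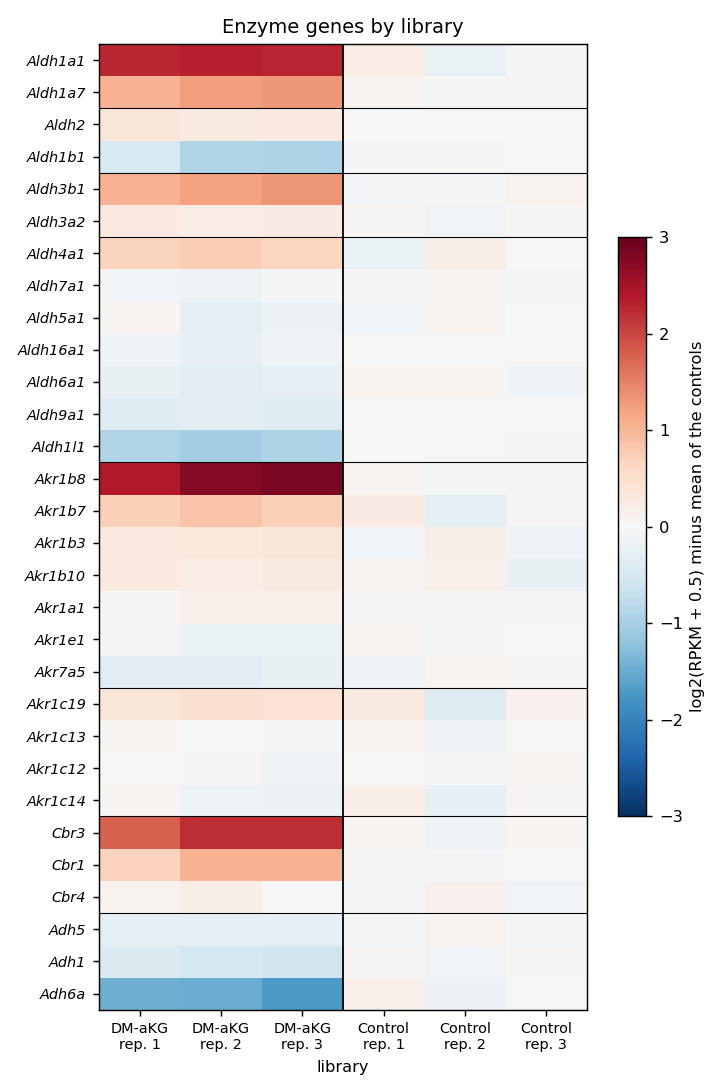
Log2(RPKM + 0.5) of each tested enzyme gene in each library (columns, DM-aKG left of the line, Control right) minus the mean of the controls, red for higher and blue for lower, with genes grouped by role. The controls are pale throughout; DM-aKG replicate 1 is paler than replicates 2 and 3 for Akr1b8, Cbr3, Cbr1 and Aldh1b1.

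Summed over members, the CBR class stood at 452, 584 and 586 RPKM in DM-aKG and 250, 233 and 246 RPKM in control, 2.22 times the control mean. The ALDH1A sum was 3.34 times the control mean, at 64.5, 71.6 and 70.6 RPKM in DM-aKG and 22.7, 19.2 and 20.1 RPKM in control. For the aldehyde and aldose reductases the sum averaged 460 ± 27.0 RPKM in DM-aKG and 376 ± 10.01 RPKM in control, and Akr1b8 made 17.4% of it in DM-aKG and 3.26% in control. The ADH sum averaged 172 ± 5.90 RPKM in DM-aKG and 241 ± 4.32 RPKM in control, and that of the mitochondrial acetaldehyde dehydrogenases 175 ± 23.7 RPKM in DM-aKG and 240 ± 5.04 RPKM in control. The ALDH3 sum averaged 32.7 ± 0.49 RPKM in DM-aKG and 25.7 ± 1.29 RPKM in control. For the amino acid, GABA, carnitine and folate class it was 130 ± 2.0 RPKM in DM-aKG and 162 ± 2.1 RPKM in control. In all of these classes the sums of the groups did not overlap, as was so for 64.2% of all tested genes taken singly. AKR1C sums did overlap, at 258 ± 8.11 RPKM in DM-aKG and 248 ± 25.2 RPKM in control. All 46 genes together summed to 1754, 1881 and 1872 RPKM in DM-aKG and 1571, 1524 and 1573 RPKM in control. These sums are descriptions with no test.

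**Figure D4:**
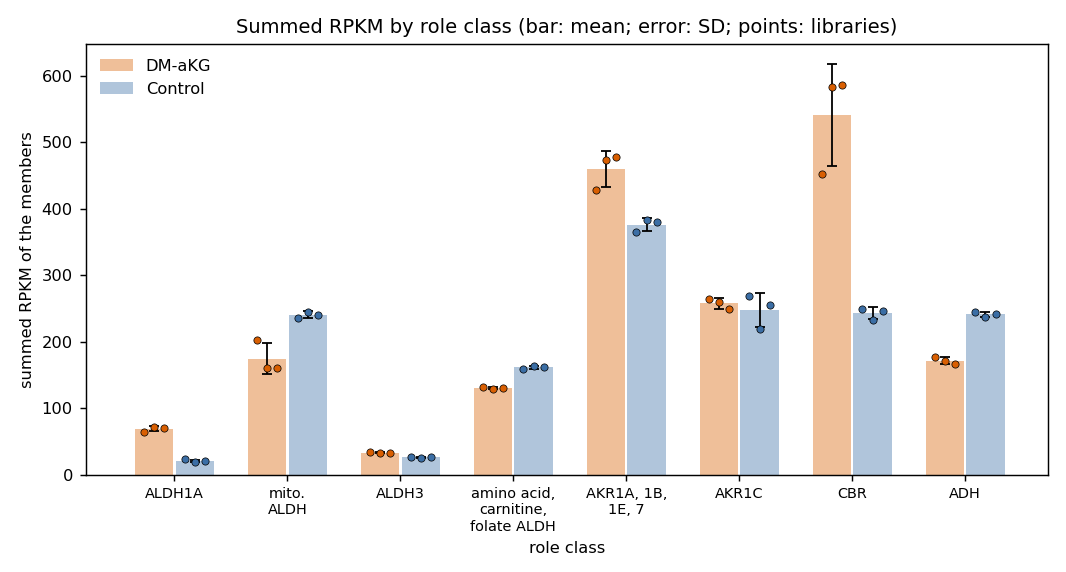
Summed RPKM (vertical axis, from 0) of the members of each role class; bars are means and error bars SD of 3 libraries, points are libraries, DM-aKG left in orange and Control right in blue. CBR has the largest gain (540 RPKM in DM-aKG, 243 RPKM in control), ADH and the mitochondrial ALDH class are lower in DM-aKG, and AKR1C overlaps.

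Neighbouring or related genes changed unequally within the same libraries. The ratio of Akr1b8 to Akr1b7 differed by 1.92 between DM-aKG and control in log2 units, that of Cbr3 to Cbr1 by 1.15, that of Aldh1a1 to Aldh1a7 by 1.14, that of Adh6a to Adh1 by -1.13 and that of Aldh1b1 to Aldh2 by -1.08. In each of these 5 pairs, chosen after the values had been seen, the ratios of the groups did not overlap. The two-sided exact permutation p was 0.1 for each pair, the smallest that 3 against 3 libraries can give, and 0.1 after Benjamini-Hochberg adjustment over the 5.

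**Figure D5:**
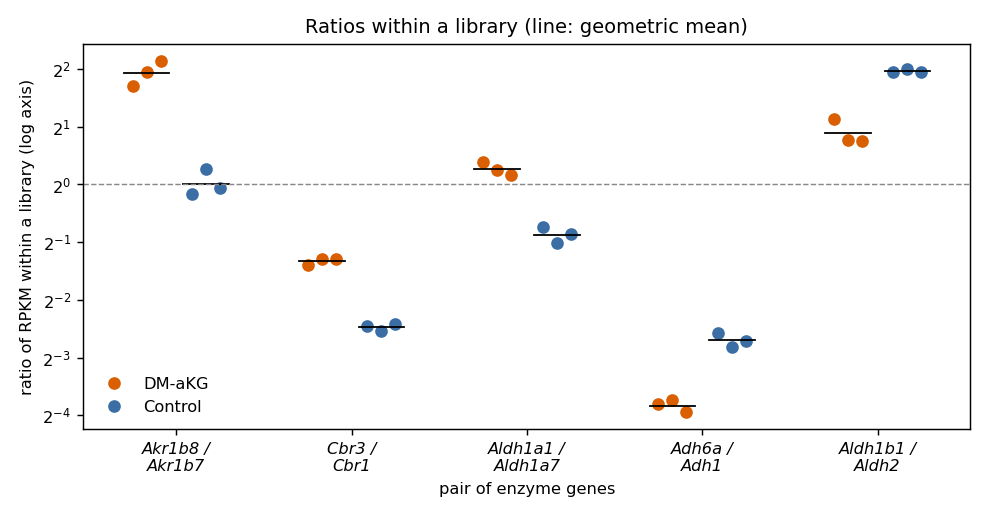
Ratio of RPKM between 2 enzyme genes within each library (vertical axis, log scale), DM-aKG left in orange and Control right in blue; lines are geometric means and the dashed line marks equal RPKM. Akr1b8 is at 3.27 to 4.38 times its neighbour Akr1b7 in DM-aKG and near it in control (0.888 to 1.20); Aldh1a1 lies above Aldh1a7 in DM-aKG and below it in control.

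Among the treated cultures, replicate 1 lay nearest to the control mean for 15 of the 22 called enzyme genes (68.2%), and for 65.5% of the 6033 called genes of the whole table. Among genes that changed by at least 0.5, it was the nearest for 10 of the 11 enzyme genes and for 1213 of the 1698 called genes of the whole table (71.4%), a difference that was not tested. Without it, 13 enzyme genes were higher and 11 lower (limma), and without it and control replicate 2, 14 were higher and 12 lower.

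For genes that work beside these enzymes, counts are to be read against the 30.9% of all tested genes that were higher and the 24.7% that were lower. Of 19 tested genes of NRF2-linked quinone and thiol defence, 14 were higher and 5 not called, with a median of 0.78. The quinone reductase gene Nqo1 rose by 3.56 ± 0.09 on the log2 scale, the cystine carrier gene Slc7a11 by 2.87 ± 0.08 and the glutathione synthesis gene Gclc by 1.92 ± 0.04. Nfe2l2, which encodes NRF2 itself, averaged 60.9 ± 2.77 RPKM in DM-aKG and 59.9 ± 4.77 RPKM in control. After median centring, 12 of its genes were higher and 1 lower. In a broad list of genes linked to NADPH supply, 7 of 12 tested genes were higher and 2 lower, with a median of 0.26. Median centring gave 6 higher and 3 lower, where 2790 of all 10852 genes were higher and 3340 lower. The pentose phosphate genes G6pdx and Pgd rose by 0.51 ± 0.04 and 0.38 ± 0.05. The cytosolic malic enzyme gene Me1 rose by 2.32 ± 0.06, Mthfd2 of mitochondrial folate metabolism by 1.04 ± 0.08 and the pentose phosphate gene Taldo1 by 0.57 ± 0.04, while the mitochondrial transhydrogenase gene Nnt fell by 0.63 ± 0.10 and Idh2 by 0.23 ± 0.05. Of 7 tested genes of the AHR battery, 4 were higher and 3 not called, with a median of 0.35. After median centring or quantile normalization 4 were higher and 1 lower. The share called was about that of all tested genes in either direction (55.6%). All 4 called genes were higher, where 30.9% of all tested genes were. Besides Nqo1, which both lists hold, Cyp1a1 rose by 1.65 ± 0.06, Cyp1b1 by 1.27 ± 0.18 and Ugt1a6a by 0.35 ± 0.09, and Ahr averaged 4.96 ± 0.32 RPKM in DM-aKG and 4.84 ± 0.30 RPKM in control.

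Of 17 tested retinol and retinoic acid genes, 4 were higher, 5 lower and 8 not called, with a median of -0.03, which is near the shares over all tested genes (30.9% higher, 24.7% lower). Rdh10, which oxidizes retinol to the substrate of Aldh1a1, rose by 1.03 ± 0.08 on the log2 scale, to 34.4 ± 1.70 RPKM in DM-aKG, against 16.7 ± 1.74 RPKM in control. The retinoic acid receptor gene Rarg rose by 0.97 ± 0.07, the carotene-cleaving enzyme gene Bco1 by 0.81 ± 0.07 and Rbp2, the retinol-binding protein of enterocytes, by 0.66 ± 0.10. The 5 lower genes were Rara, Rbp4, Rdh11, Rdh13 and Rdh14, each by 0.23 to 0.30, and only 3 were lower without DM-aKG replicate 2 or 3 or without control replicate 1 or 3. Cyp26a1, Cyp26b1 and Cyp26c1, which break down retinoic acid, averaged at most 0.01 RPKM in either group. A list of 17 tested reductases and dehydrogenases outside the CBR family, mostly short-chain but with the medium-chain Sord, Ptgr1 and Ptgr2, had 7 higher and 4 lower (6 and 6 under quantile normalization) and a median of 0.01, where 30.9% of all tested genes were higher and 24.7% lower. The retinol and steroid dehydrogenase gene Dhrs9 rose by 1.11 ± 0.11, Hsd11b2, which inactivates glucocorticoids, by 0.76 ± 0.13 and Hsdl2 by 0.71 ± 0.07, and Dhrs4, a peroxisomal carbonyl reductase, fell by 0.68 ± 0.13.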

How the data were processed

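Build mm10, Partek, HISAT2 2.0.4 and CASAVA 1.8 are named, per the submitters' processing notes; how genes were annotated, whether strand was used and how multiply matching reads were counted is not given in the sources used here. Values are RPKM with 2 decimals, as deposited, and cover 24956 genes and 6 libraries, and each column was matched to a sample by its title. Low values were set against the lengths of RefSeq snoRNA and miRNA genes up to 150 bases long to estimate depth; 91.4% to 94.4% of other low values came out as whole reads within 0.05, and that depth limits low genes by counting error.

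log2(RPKM + 0.5) of genes with a mean of at least 1 RPKM was fitted with limma 3.58.1 in R 4.3.3 (mean-variance trend, two-sided, no replicate term), and the procedure was checked on simulated data. Members and gene lists were chosen with earlier results of these data known. Named in full were members called with a log2 change of at least 0.5, the most abundant of each class and their near copies. Positions and transcripts come from GENCODE on GRCm38, the assembly mm10 names. Alternatives covered the pseudocount, filter, scaling, variance model, replicate block and omitted libraries. Exact permutation tests and figures used Python 3.11.15 with numpy 2.4.6, pandas 2.3.3, scipy 1.17.1 and matplotlib 3.10.9.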

Additional observations from a re-analysis of the deposited data

How the results depend on the processing

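Of 22 called enzyme genes, 18 were called in the same direction under every one of 17 alternatives that tested them, and none of the 30 changed direction while called. Exceptions were Akr1b10, Akr1b3, Akr1c19 and Aldh16a1. Akr1b10 was also lost under median centring, quantile normalization (limma, adjusted p = 0.0503) and with no filter (0.0889). Akr1b3 was also lost with no filter (limma, adjusted p = 0.0511). Akr1c19 was also lost with no filter (limma, adjusted p = 0.0910), under quantile normalization (0.0888), with a robust variance model (0.0640) and without a variance trend (0.0559). Counts ranged from 10 to 14 higher and from 8 to 12 lower. Whether same-numbered libraries were set up as pairs is not given in the sources used here. Their deviations from the group means correlated at r = -0.083, -0.11 and 0.011. Those of libraries with unlike numbers correlated at -0.033 to 0.10, and such values cannot decide the question. With the replicate block 12 enzyme genes were higher and 9 lower, Akr1b10 being lost (limma, adjusted p = 0.0513). Retinoid genes called lower ranged from 3 to 6 with a library left out (7 without control replicate 2 and DM-aKG replicate 1). In the NRF2 list 1 gene was called lower after median centring, and 0 to 1 with a library left out (1 without DM-aKG replicate 1, 1 without the pair named above). In the AHR list 1 gene was called lower after median centring, 1 under quantile normalization, and 0 to 1 with a library left out (1 without DM-aKG replicate 2). The cause of these shifts was not tested. Depth limits the 16 genes under 1 RPKM.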
